A study of Mus musculus with 3 samples.

Results

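Cells labelled Cd7, Klf4 and Alox5 positive type 2 conventional dendritic cells (cDC2) were described. They came from 3 droplet single-cell RNA sequencing libraries of mouse dendritic cells. The label does not mean that each cell held all 3 transcripts. The cultures came from wild-type C57BL/6 mice and were grown in vitro with the cytokine FLT3L, on which dendritic cell development depends. There was 1 library per group: a control in 2 mM glutamine, a culture in 50 µM glutamine, and another culture that had 1 µM DON added to 2 mM glutamine. DON is a glutamine analogue that blocks enzymes using glutamine. All 3 groups carried FLT3L, so no group shows the cells without it. The labels name no mouse or culture, and cells of a library are not replicates, so no test between groups was possible and none is given.

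A cell was a member when at least 2 of the 6 transcripts Cd7, Klf4, Alox5, Ffar4, Apod and Cd200r1 had a UMI (unique molecular identifier, which counts 1 captured RNA molecule). It also needed at least 10 UMIs of the MHC class II genes H2-Aa and H2-Ab1 together. Cd209a, Xcr1, Clec9a, Ccr7, Fscn1 and Cd3e had to be at 0, and Siglech at 1 UMI or less. Barcodes were kept from 1000 UMIs and 500 genes upwards if mitochondrial UMIs were 10% or less, and of the 28903 kept ones 1710 were members. They were 652 cells of the control, 425 of the 50 µM glutamine library and 633 of the DON library. Members were chosen by the UMI counts of these genes in these same cells, so the genes it used are given below as a description only.

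Conventional dendritic cells present peptides on MHC class II to T cells. The cDC2 branch is known for Sirpa, Itgam (CD11b) and the transcription factor Irf4, and the cDC1 branch for Irf8, Batf3, Xcr1 and Clec9a. Klf4 encodes a zinc finger factor that some cDC2 need for their development. Alox5 encodes the 5-lipoxygenase that makes leukotriene precursors from arachidonic acid, Ffar4 a receptor for long-chain fatty acids, and Apod a small lipid carrier. Cd7 and Cd200r1 encode membrane proteins of the immunoglobulin superfamily, the second an inhibitory receptor. Glutamine feeds the citric acid cycle, nucleotide synthesis and glutathione synthesis.

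The libraries held 10497, 9817 and 8962 barcodes and 87611658 to 92002827 UMIs. Median depth was 6890, 7909 and 8145 UMIs over the kept barcodes of control, 50 µM glutamine and DON, and 7086, 6840 and 8393 UMIs over the members. Pairs of libraries shared 20 to 31 barcodes, and no member of one library shared its barcode with a member of another. Marked doublets made up 4.45%, 3.76% and 1.26% of the members in that order and were kept. The threshold of the doublet score differed between libraries, and 66.8%, 47.5% and 36.0% of simulated doublets lay above it, so doublets were found least completely with DON.

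The label was checked against markers. The cDC2 genes Sirpa, Itgam and Irf4 were present in the members of all 3 libraries. Ccr2 was present too, but it is on the lists of both cDC2 and monocytes or macrophages and does not tell them apart. Sirpa, a signal regulatory receptor, stood at 83.8 CPM (counts per 1000000, a gene's share of all UMIs of the summed cells, on the usual scale) in control, 123 at 50 µM glutamine and 66.9 under DON. Itgam stood at 94.1, 160 and 77.1 CPM and Irf4 at 39.6, 38.7 and 35.0 CPM in that order. Of the 20 cDC2 markers, 15 or 16 reached 5 CPM in each library, Cd209a being at 0 by the rule, Esam at 0 in control and DON, and Tbx21 at 0 in control. The cDC2 list, with Cd209a in it, summed to 3774, 4169 and 3743 CPM in the members of control, 50 µM glutamine and DON. In cDC2 with at least 2 UMIs of Cd209a and at most 1 marker it summed to 4651, 4822 and 4837 CPM. Much of the sum in members was S100a4, which alone was at 2164, 2459 and 2245 CPM in members with exactly 2 markers. The sum therefore says little about the other cDC2 genes. The list of conventional dendritic cells, with the rule genes H2-Aa and H2-Ab1 in it, summed to 29972, 19366 and 25471 CPM in members. In the same Cd209a cDC2 it summed to 51436, 34280 and 42161 CPM. The cDC1 list summed to 907, 632 and 886 CPM in members against 638, 723 and 802 CPM in Cd209a cDC2. For the plasmacytoid list the sums were 1417, 1124 and 1257 against 739, 1032 and 908 CPM. The members therefore carried cDC2 markers beside those of other kinds, and they were not 1 uniform cell type.

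Clustering of all kept barcodes on all their variable genes spread the members over several clusters, each called here by its leading gene. The clusters led by Cd209a and Ltb, both cDC2-like by their markers, held 567 and 181 of the 1710 members, or 33.2% and 10.6%. Clusters led by cell cycle genes held 29.8%, and a cluster led by Apod held 8.89%. Clusters with cDC1 genes in the lead held 10.4%, although Xcr1 and Clec9a were at 0 in every member by the rule. Macrophage-like or Clec4n-led clusters held 4.15%. The last 3.099%, 53 cells, lay in neutrophil-like, progenitor-like, basophil or mast-like and other clusters. The first 4 of these groups, the 2 cDC2-like clusters, the Apod-led cluster and the cell cycle-led clusters, held 1409 members, 82.4% of all. Values in these 1409 members are given for the gene counts, for the named genes where stated and for the gene lists; this subset was chosen after its values were seen.

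**Figure D1:**
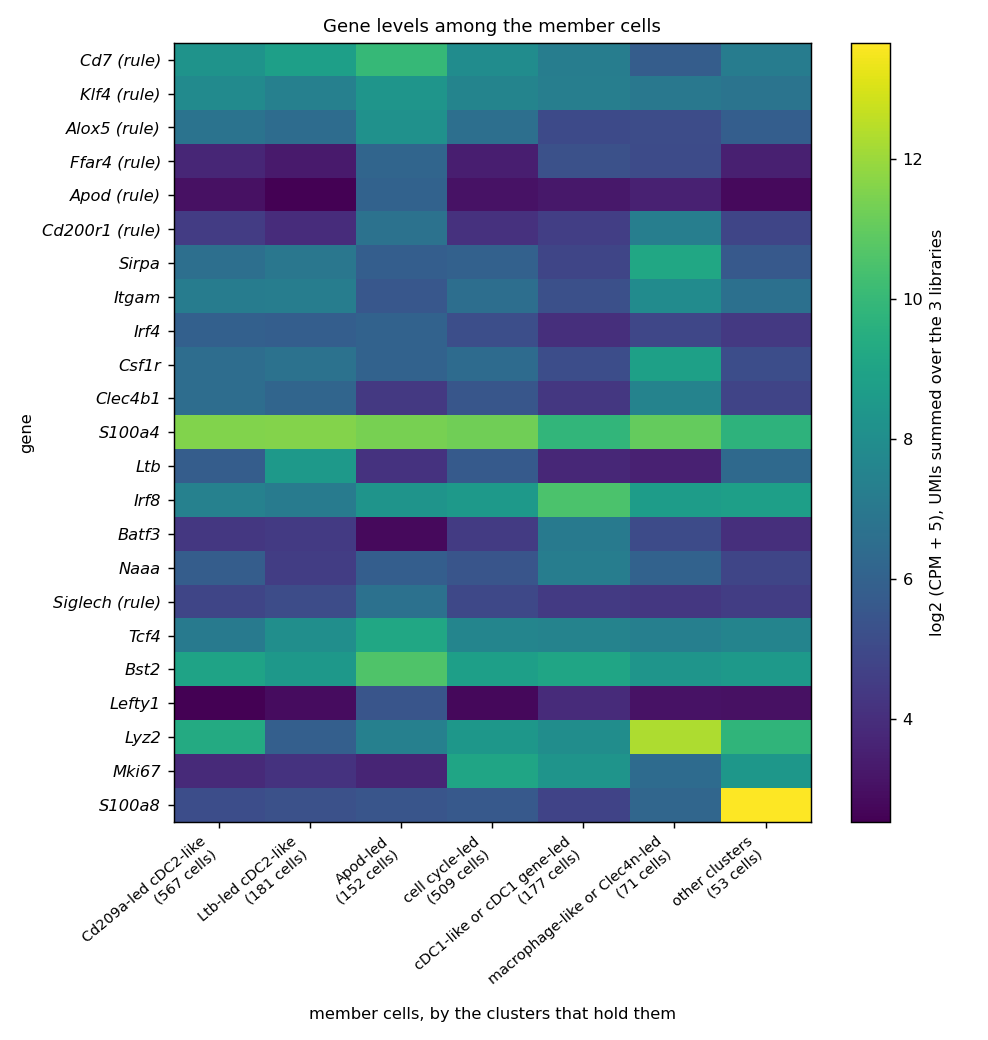
Levels of the genes of the rule and of cell type markers in the members, by the clusters that hold them, as log2 of CPM + 5 over the 3 libraries summed; the number of cells is under each column. The clusters were built on these cells' own genes, so the map describes the mix: Apod-led members have the most Cd7 and Tcf4, cDC1 gene-led members the most Irf8, and macrophage-like or Clec4n-led members the most Sirpa and Lyz2.

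The Apod-led members stood apart within the set in more than the rule genes. Their Cd7 was at 1017 CPM, against 298 in members of the Cd209a-led cluster and 439 in those of the Ltb-led cluster. Tcf4, the transcription factor that defines plasmacytoid dendritic cells (pDC), was at 560, 130 and 256 CPM in that order, and Bst2, a surface marker of pDC, at 1523, 509 and 344 CPM. Sirpa showed the reverse order at 53.1, 91.4 and 116 CPM. S100a4, a calcium-binding protein of motile cells, differed less, at 2663, 3012 and 3090 CPM. Clustering used all of these genes, so the contrasts are no test.

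Most cells of the Apod-led cluster were left out by the rule itself. Its cells with 2 or more of the 6 markers were 89.0% in control, 91.4% at 50 µM glutamine and 93.4% under DON, but 8.42%, 2.86% and 6.20% were members. In control, 620 of the 856 cells with 2 or more markers had more than 1 UMI of Siglech, a receptor known from pDC, and 499 were under 10 MHC class II UMIs. The same 2 conditions took 345 and 255 of 383 cells at 50 µM glutamine and 717 and 570 of 888 with DON.

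In members of the cDC1 gene-led clusters Irf8, the factor that cDC1 depend on, was at 1435 CPM, against 164 in members of the Cd209a-led cluster. Batf3, its partner in cDC1, was at 131 against 14.8 CPM. Alox5 in the same 2 groups was at 27.6 and 102 CPM. Members of the macrophage-like or Clec4n-led clusters held Lyz2, the lysozyme of myeloid cells, at 4945 CPM and Sirpa at 569 CPM. S100a4 was at 2057 CPM in them. Ccr2 was at 689 CPM in them and at 475 CPM in members of the cDC1 gene-led clusters. In members of the Cd209a-led and Ltb-led clusters Ccr2 was at 400 and 296 CPM. The rule of 2 markers thus took in cells with quite different other genes.

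The share of cells with 2 or more markers differed widely between clusters. In the larger Ccl5-led mature DC-like cluster, 1.84%, 1.43% and 1.47% of the cells of control, 50 µM glutamine and DON had 2 or more of the 6 markers, at median depths of 5857, 5729 and 6883 UMIs. In the smaller Ccl5-led mature DC-like cluster, which holds 0 members, the shares were 46.9%, 36.2% and 65.6%, at median depths of 14245, 14058 and 19024 UMIs. In the Ltf-led neutrophil-like cluster the shares were 2.47%, 1.36% and 2.81%, at median depths of 2113 to 2973 UMIs. In the Plbd1-led cDC1-like cluster they were 15.5%, 10.7% and 17.7%. In the Cd209a-led cluster they were 40.2%, 28.9% and 53.8%, and in the Ltb-led cluster 36.5%, 39.1% and 39.2%. In the Ly6d-led pDC-like cluster they were 38.97%, 32.5% and 40.7%, at median depths of 5432.5, 5839 and 6684 UMIs. In the Sept3-led cluster, which has cDC1 genes in the lead, they were 77.7%, 62.1% and 88.8%. The Cd209a-led and Ltb-led clusters thus lay above the larger mature cluster in every library, but below the deeper Sept3-led and Hist1h1b-led ones. The Ly6d-led share lay above the Cd209a-led one at 50 µM glutamine, and above the Ltb-led one in control and DON. The Cd209a-led cluster lay below the smaller and deeper mature one in every library. Having 2 or more markers was therefore not limited to cDC2 and did not set the cDC2-like clusters apart.

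Members were the smallest share of kept barcodes at 50 µM glutamine. The share was 6.29% in control (95% interval 5.83% to 6.77%, exact Clopper-Pearson, n = 1 library), 4.40% at 50 µM glutamine (4.004% to 4.83%) and 7.12% under DON (6.60% to 7.68%). Intervals here and below cover counting error only, not the spread between cultures or mice. The interval at 50 µM glutamine lay below the others, while those of control and DON overlapped. Among cells that met all parts of the rule other than the marker count, 35.4% of 1841 were members in control, 30.9% of 1375 at 50 µM glutamine and 41.6% of 1522 with DON. By that denominator DON (39.1% to 44.1%) lay above control (33.2% to 37.6%), and 50 µM glutamine (28.5% to 33.4%) overlapped control.

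Depth bears on these shares, because a deeper cell is more likely to show a UMI of a marker and of an excluded gene. Each cell was therefore thinned to 2000 UMIs at random and the rule was applied again. This left 10061, 9287 and 8690 barcodes deep enough, and 2.61% (2.31% to 2.94%), 1.03% (0.838% to 1.26%) and 2.45% (2.14% to 2.80%) of them were members in control, 50 µM glutamine and DON. The 50 µM glutamine library was again the lowest, and DON no longer stood above control. Of the thinned cells that met the other parts of the rule, 9.51%, 7.95% and 12.8% were members, with DON (11.2% to 14.5%) above control (8.44% to 10.7%). The interval at 50 µM glutamine, 6.49% to 9.63%, overlapped that of control. Thinning changed the cells compared, as UMIs of excluded genes can be lost and 10 MHC class II UMIs are harder to reach. Those that met the other parts were 2766, 1207 and 1662 cells, against 1841, 1375 and 1522 at full depth. The thinned shares by either denominator are therefore not those of the same cells corrected for depth. With 3 or more markers required in cells at full depth, the shares of kept barcodes were 2.02%, 1.08% and 2.81%. The interval for DON, 2.48% to 3.18%, then lay above that for control, 1.75% to 2.31%, without correction for the greater depth of the DON members.

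**Figure D2:**
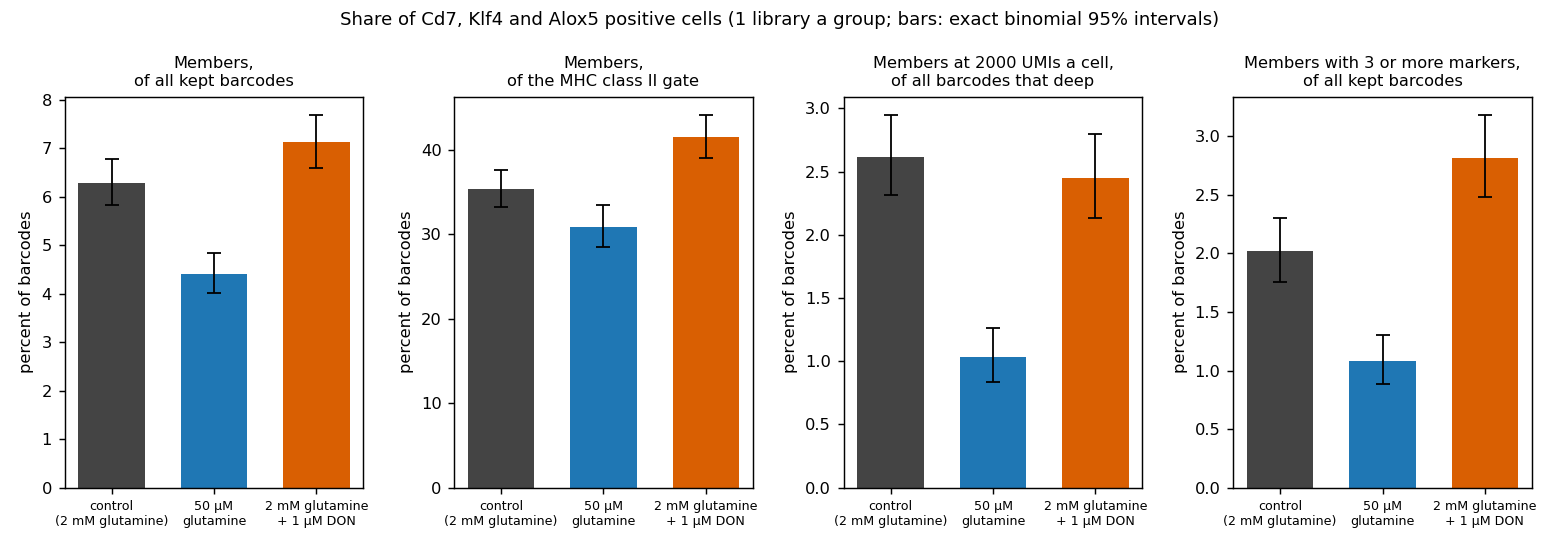
Share of members in each library, as percent of barcodes, with exact binomial 95% intervals; each panel names its denominator and the variant of the rule. The 50 µM glutamine library has the lowest bar in all 4 panels, 4.40% in the first; the DON library lies above control in each panel other than the one where every cell was thinned to 2000 UMIs.

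The mix of clusters under the members differed between libraries. Of control members, 36.8% lay in the Cd209a-led cluster, 6.13% in the Ltb-led cluster, 12.4% in the Apod-led cluster and 24.8% in cell cycle-led clusters. At 50 µM glutamine these shares were 25.6%, 22.6%, 2.82% and 35.8%, and with DON 34.4%, 7.11%, 9.32% and 30.8%. Clusters with cDC1 genes in the lead held 13.3%, 2.59% and 12.5% of the members. Between control and 50 µM glutamine the intervals of these 5 shares did not overlap, and between control and DON they did. Genes that differ between the libraries took part in the clustering, so these shares describe which cells the rule took from each library and are not counts of cell types. Whether the mix or the level per cell sets a difference in the summed members cannot be told apart from the sums alone, and values within 1 cluster are therefore given too.

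**Figure D3:**
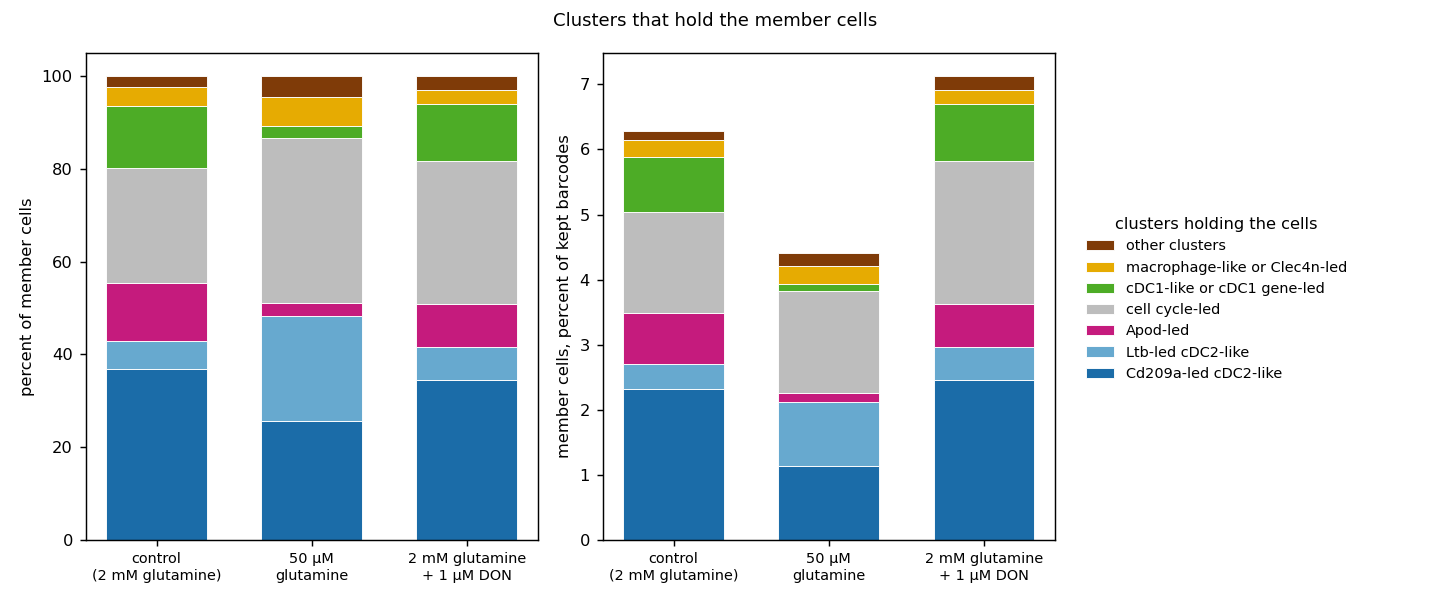
Members by the clusters that hold them, as percent of the members of each library (left) and of its kept barcodes (right). At 50 µM glutamine the Ltb-led part is larger, 22.6% against 6.13% of the members in control, and the Apod-led and cDC1 gene-led parts are smaller, 2.82% and 2.59% against 12.4% and 13.3%.

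The 6 markers themselves are described without reading a difference from them, since they chose the cells. Cd7, on chromosome 11 from 121036747 to 121039418 of GRCm38, was at 354, 233 and 284 CPM in members of control, 50 µM glutamine and DON. Klf4 was at 198, 163 and 198 CPM and Alox5 at 90.9, 103 and 88.3 CPM. The other 3 were low in all libraries: Ffar4 was at 19.9, 7.13 and 15.6 CPM, Apod at 8.83, 3.57 and 7.78 CPM and Cd200r1 at 37.2, 11.5 and 26.1 CPM. Most members held the fewest markers that the rule allows: exactly 2 were held by 67.9% of members in control, 75.5% at 50 µM glutamine and 60.5% under DON. All 6 were held by 4 cells, which were in the DON library. Alox5 had a UMI in 42.5%, 56.0% and 48.0% of the members of control, 50 µM glutamine and DON. Cd7 had a UMI in 82.8%, 76.2% and 83.9%, and Klf4 in 81.1%, 78.4% and 85.8%. Cd7 and Alox5 together were held by 34.0%, 38.6% and 38.9%, so many members were not positive for all genes of the label.

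The values on either side of the threshold were as follows. Cells with exactly 2 markers had Cd7 at 240 CPM and Klf4 at 167 CPM in control, and cells with exactly 1 marker and all other parts of the rule had 111 and 91.0 CPM. Away from the markers, S100a4 was at 2164 CPM with exactly 2 markers, 1736 with 1 and 1265 with none in control. The order was the same at 50 µM glutamine, with 2459, 2120 and 1823 CPM, and with DON, with 2245, 1763 and 1470 CPM. Irf8 ran the other way, at 507, 669 and 921 CPM in control, 299, 339 and 465 CPM at 50 µM glutamine and 493, 722 and 878 CPM with DON. Itgam had the order of S100a4, at 104, 96.0 and 60.4 CPM in control, 174, 146 and 135 CPM at 50 µM glutamine and 86.2, 85.0 and 57.8 CPM with DON. Sirpa had no common order, at 91.4, 99.8 and 69.7 CPM, 133, 133 and 159 CPM, and 71.6, 83.1 and 88.5 CPM. Median depths of the 9 groups lay between 6332 and 8346 UMIs.

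Cell cycle genes were high in many members. After thinning, 20.1% of control members, 28.9% at 50 µM glutamine and 25.0% under DON had 3 or more UMIs of the cycling markers. The interval at 50 µM glutamine, 24.7% to 33.5%, lay above that of control, 17.1% to 23.4%, and that of DON, 21.7% to 28.6%, overlapped both. Neutrophil marker UMIs were concentrated in few members. The 12 neutrophil markers summed to 1464, 3408 and 2148 CPM, and 6, 8 and 6 members held 94.7%, 96.4% and 94.6% of those UMIs, although S100a8 had a UMI in 104, 105 and 198 members. Markers of the pDC and monocyte lists were spread widely: in control Bst2 had a UMI in 598 of the 652 members, Tcf4 in 431, Ccr2 in 527 and Lyz2 in 362. Of these, Ccr2 is on the cDC2 list too. The pDC markers summed to 1417, 1124 and 1257 CPM and those of monocytes or macrophages to 1318, 2167 and 1300 CPM. The part of these transcripts in the gene differences below was not tested.

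Between 50 µM glutamine and control, 6100 genes had at least 20 CPM in the members of 1 or both libraries. Of these, 69 were at least 2-fold higher at 50 µM glutamine, which is 1.13%, and 36 were at least 2-fold lower, which is 0.590%. Ratios are log2 of CPM + 5 in the treated over the control members, so the difference of low genes is understated. The median ratio over 9447 genes of at least 5 CPM was 0.15, so differences are best read against that shift. Under scaling by the median of ratios the counts were 50 higher and 50 lower. In members of the 4 main cluster groups 26 of 5961 genes were higher and 28 lower, 0.436% and 0.470%.

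Several of the highest genes at 50 µM glutamine came from 1 cell. Pf4, the platelet factor 4 of megakaryocytes, was at 9.02 CPM in control, 1064 at 50 µM glutamine and 9.24 under DON. That is the largest ratio, 6.25, but 98.9% of the UMIs at 50 µM glutamine came from a single cell. The same held for Ppbp, Nrgn, Itga2b, Gng11, Ctla2a, Tesc and Itgb3, where 1 cell gave 92.8% to 99.2%. One member of the Ctla2a-led cluster had 76258 UMIs, the most of any member. In members of the 4 main cluster groups the ratio of Pf4 was 1.23 and that of Ppbp 0.30, so these genes are not described further.

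The lowest genes at 50 µM glutamine in the 4 main cluster groups did not rest on single cells: in control 1 cell gave at most 3.86% of a gene's UMIs in each of the 10. Ankrd37, an ankyrin repeat protein known as a target of hypoxia-inducible factor, had the lowest ratio, with 95.7, 5.92 and 36.0 CPM in control, 50 µM glutamine and DON in these groups. Over all members it was at 90.7 CPM in control (95% Poisson interval 82.8 to 99.2), 5.21 at 50 µM glutamine (3.14 to 8.14) and 32.9 under DON (28.5 to 37.7). The 3 intervals did not overlap, and the ratio was -3.23 at 50 µM glutamine and -1.34 with DON. Within the Cd209a-led cluster alone the levels were 83.6, 2.90 and 39.2 CPM, and within the cell cycle-led clusters 112, 3.91 and 30.3 CPM. In the Apod-led cluster, where 50 µM glutamine left 12 members, its interval was too wide to compare. The ratio at 50 µM glutamine was -3.12 in cDC2 with at least 2 UMIs of Cd209a and -3.06 in cDC2 with Ltb and S100a4, close to the members.

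Over all members Aldoc, the brain-type aldolase of glycolysis, was at 76.5 CPM in control, 8.51 at 50 µM glutamine and 44.6 under DON. Mif, a cytokine and tautomerase whose gene also responds to hypoxia, was at 644, 182 and 469 CPM. Pgk1, the phosphoglycerate kinase of glycolysis, was at 442, 150 and 315 CPM. In each of these genes DON lay between the other 2 libraries, with intervals that did not overlap. Within the Cd209a-led cluster the ratios at 50 µM glutamine were -2.31 for Aldoc, -1.98 for Mif and -1.42 for Pgk1, close to -2.59, -1.80 and -1.53 over all members. The plot of the genes at either end shows the same order of libraries for them.

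The promoters of the genes lowest at 50 µM glutamine in the 4 main cluster groups were searched for ACGTG on either strand. ACGTG is a form of the core of the hypoxia response element. Other forms were not searched, so a gene without a match may still hold the core. RefSeq promoters of GRCm38.p6 were used, in the 250 bases before the start of transcription. Of the 10 genes 8 had a promoter in the table, and 3 held the motif in any of their promoters, Ankrd37, Pgk1 and Ifi30. Of all 27025 genes with a promoter, 18.5% held it in any of them, and counted by promoter it was in 16.6% of 32851. In Ankrd37 it began 241 and 6 bases before the start, and in Pgk1 150 and 131 bases before it, the last on the other strand. The stretches before the start that hold it are printed here because they belong to the pair of genes with the motif and the largest differences, with the motif in capitals. The first is on the minus strand at chr8:45999851-45999883 and the second on the plus strand at chrX:106186942-106187000.
Ankrd37: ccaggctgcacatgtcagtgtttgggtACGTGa
Pgk1: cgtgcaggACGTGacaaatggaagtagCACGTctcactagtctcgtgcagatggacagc
A match describes the letters of these windows and is not evidence of binding.

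Other low genes at 50 µM glutamine had different roles, and their levels are again over all members. Crip1, a small zinc-binding LIM protein, was at 1395, 461 and 1148 CPM in control, 50 µM glutamine and DON, a ratio of -1.59 at 50 µM glutamine and -1.03 within the Cd209a-led cluster. Scd2, a stearoyl-CoA desaturase that makes monounsaturated fatty acids, was at 193, 68.3 and 204 CPM. Ifi30, the lysosomal thiol reductase that unfolds antigen, was at 468, 174 and 396 CPM. Tnni2, a troponin subunit, was at 74.8, 26.1 and 50.1 CPM. Plbd1, a gene high in cDC1, was at 89.1 and 17.3 CPM in control and 50 µM glutamine, and its ratio was -2.08 over all members and -1.55 in the 4 main cluster groups, while the cDC1 gene-led share of the members was lower too.

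**Figure D4:**
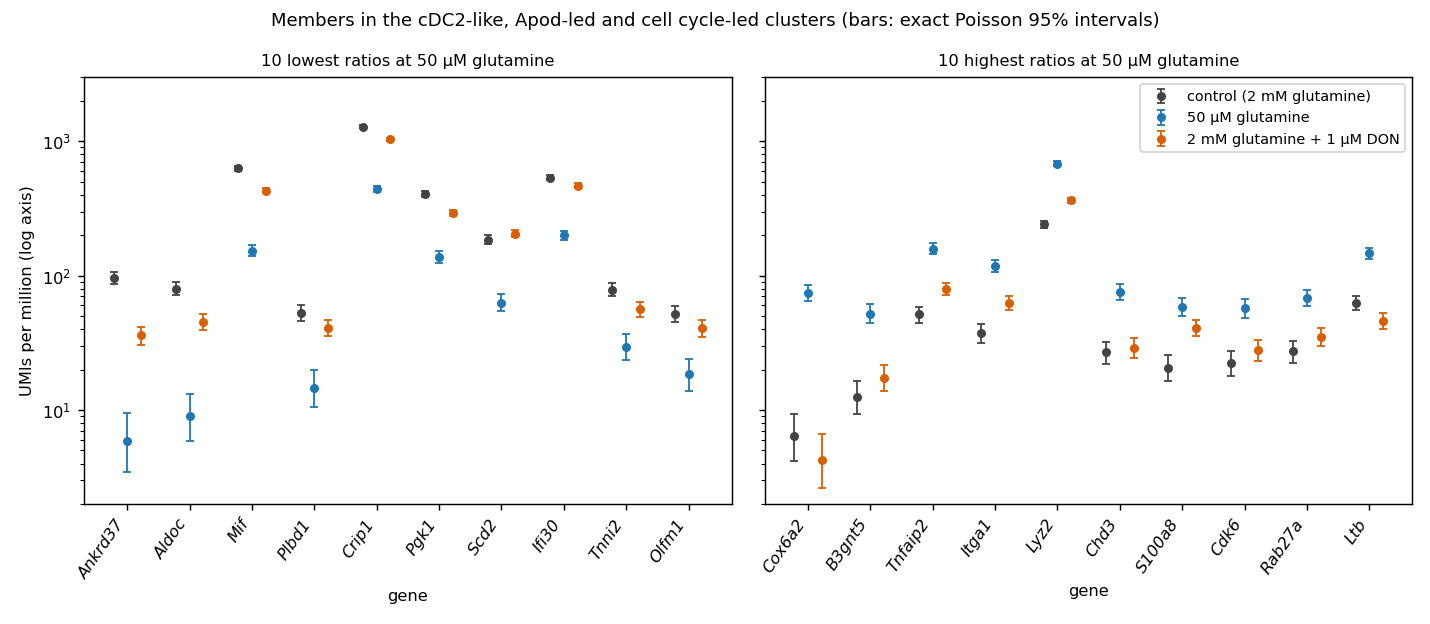
CPM of the 10 lowest (left) and 10 highest (right) genes at 50 µM glutamine in members of the 2 cDC2-like clusters, the Apod-led cluster and the cell cycle-led clusters, by library, on a log axis with exact Poisson 95% intervals. On the left, DON lies between control and 50 µM glutamine for Ankrd37, at 95.7, 5.92 and 36.0 CPM in control, 50 µM glutamine and DON, and Scd2 is low in the 50 µM glutamine library alone.

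The glycolysis list, the enzymes that take glucose to lactate with their transporters, was the lowest of the 27 gene lists. Of its 22 genes at 5 CPM or more, 10 were at least 1.5 times lower at 50 µM glutamine and 2 at least 1.5 times higher. Over all genes 2.06% were that much lower and 7.28% that much higher. The list's median ratio was -0.52, against 0.15 over all genes, and between -0.77 and -0.43 under 14 other settings. Among the 4 main cluster groups 11 of 21 were that much lower and 0 higher, with a median of -0.67, beside 2.06% and 7.95% of all genes there. In the Cd209a-led cluster 9 of 21 were lower and 1 higher, with a median of -0.43, beside 5.09% and 13.5%. Aldoa, the main aldolase, was at 689 CPM in control, 340 at 50 µM glutamine and 536 under DON, Tpi1, the triose phosphate isomerase, at 162, 90.3 and 115 CPM, and Gapdh at 1822, 1114 and 1624 CPM. Slc2a1, the glucose transporter GLUT1, was at 26.3, 9.33 and 16.7 CPM. Hexokinases differed among themselves: Hk2 was at 76.7, 55.7 and 65.6 CPM, and Hk1 at 18.4, 30.5 and 21.1 CPM. The 2 genes that were higher were Hk1 and Hk3, by ratios of 0.60 and 0.66.

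Hypoxia factor targets outside glycolysis were mixed. Of 15 measured, 5 were at least 1.5 times lower and 0 that much higher, with a median of -0.27, beside 2.06% and 7.28% of all genes. In the 4 main cluster groups and in the Cd209a-led cluster 5 of 15 were lower too, with medians of -0.28 and -0.20. Of all genes 2.06% and 5.09% were that much lower there. Besides Ankrd37 and Mif the low ones over all members were Egln3 and P4ha1, both prolyl hydroxylases, and Bnip3, a mitophagy receptor, with ratios of -1.28, -1.04 and -0.78. Ndrg1 and Bnip3l, known targets of the same factor, had ratios of 0.21 and 0.22. P4ha1 was at 40.2 CPM in control, 17.01 at 50 µM glutamine and 18.0 under DON. The low genes of this list were therefore a part of it.

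Part of the genes of antigen presentation on MHC class II were lower at 50 µM glutamine. H2-Aa and H2-Ab1 are left out of this list because the rule used them; the cells were chosen to hold at least 10 of their UMIs. Of the other 15 genes, 7 were at least 1.5 times lower and 0 that much higher, with a median of -0.42, beside 2.06% and 7.28% of all genes. In the 4 main cluster groups 6 of 15 were lower and 1 higher, with a median of -0.40, beside 2.06% and 7.95% of all genes there. In the Cd209a-led cluster 3 of 14 were lower and 1 higher, beside 5.09% and 13.5% of all genes, with a median of -0.40. H2-Eb1, a class II chain, was at 2254, 1426 and 1746 CPM in control, 50 µM glutamine and DON, and Cd74, the invariant chain, at 10727, 7073 and 8848 CPM. H2-DMb2, which helps load peptide, was at 106, 56.8 and 70.5 CPM. Ciita, the master activator of these genes, was at 195, 211 and 185 CPM, and the intervals of control and 50 µM glutamine overlapped.

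The medians of the sterol synthesis genes had opposite signs in the treated libraries, but few of the genes were far from control. At 50 µM glutamine 6 of 24 were at least 1.5 times lower and 0 that much higher, with a median of -0.35, beside 2.06% and 7.28% of all genes. In the 4 main cluster groups 4 of 24 were lower, with a median of -0.26, beside 2.06% of all genes there. In the Cd209a-led cluster 3 of 22 were lower and 1 higher, beside 5.09% and 13.5%. With DON 0 of 24 passed in either direction, beside 0.692% of all genes lower and 0.406% higher. The median was 0.24, against 0.04 over all genes. Fdps, which makes farnesyl diphosphate, was at 258 CPM in control, 150 at 50 µM glutamine and 348 under DON. Hmgcs1, which makes HMG-CoA, was at 92.2, 79.0 and 124 CPM, and Msmo1, a sterol oxidase, at 71.0, 52.7 and 92.7 CPM. The median at 50 µM glutamine was -0.15 within the Cd209a-led cluster and 0.01 when the rule was applied to thinned cells, so the lower values did not hold under every choice of cells. The median with DON lay between 0.20 and 0.38 under 14 other settings.

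Part of the antioxidant genes of the NRF2 pathway were higher at 50 µM glutamine. Of 22 measured, 9 were at least 1.5 times higher and 0 that much lower, beside 7.28% and 2.06% of all genes. The median was 0.43, and 0.24 under scaling by the median of ratios. Among the 4 main cluster groups 6 of 20 were that much higher, with a median of 0.40, beside 7.95% of all genes there. In the Cd209a-led cluster they were 7 of 20, with a median of 0.48, beside 13.5%. Txnrd1, the thioredoxin reductase, was at 31.0 CPM in control, 81.8 at 50 µM glutamine and 45.9 under DON, Gsr, the glutathione reductase, at 15.8, 36.5 and 21.1 CPM, and G6pdx, which supplies NADPH, at 27.2, 51.6 and 32.1 CPM. Gclm, a subunit of the enzyme that starts glutathione synthesis, was at 32.9, 66.7 and 39.7 CPM, but 1 cell gave 26.7% of its UMIs at 50 µM glutamine.

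ATF4 targets, the genes induced when amino acids run short, were higher in part. Of 26 measured, 7 were at least 1.5 times higher at 50 µM glutamine and 0 that much lower, beside 7.28% and 2.06% of all genes. The median was 0.31. Over the 4 main cluster groups 5 of 25 were higher, with a median of 0.20, beside 7.95% of all genes there. In the Cd209a-led cluster 4 of 23 were higher and 1 lower, with a median of 0.22, near the 13.5% and the median of 0.12 of all genes there. Asns, which makes asparagine from aspartate with glutamine as nitrogen donor, was at 2.63 CPM in control, 22.2 at 50 µM glutamine and 2.59 under DON. Phgdh, the first enzyme of serine synthesis, was at 12.2, 40.3 and 15.9 CPM. Within the 4 main cluster groups the ratios at 50 µM glutamine were 1.27 for Asns and 0.93 for Phgdh, and within the Cd209a-led cluster 1.00 and 0.74. Most of the list differed little: Atf4 itself was at 68.8, 82.6 and 68.5 CPM.

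**Figure D5:**
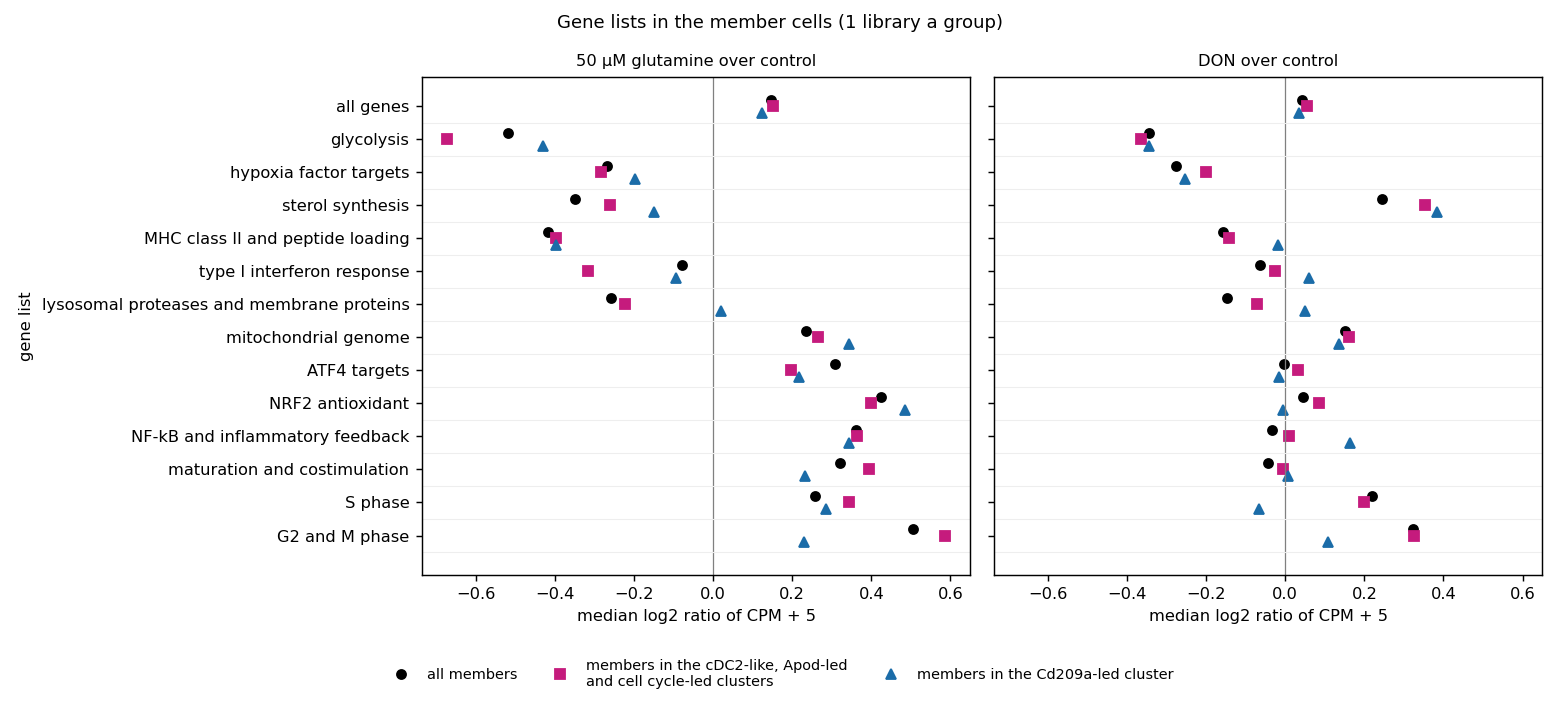
Median log2 ratio of CPM + 5 over the genes of 14 sets, of which the first is all genes, for 50 µM glutamine (left) and DON (right) over the same control; circles are all members, squares those of the 4 main cluster groups, triangles those of the Cd209a-led cluster. Glycolysis is the lowest on both sides, at -0.52 and -0.35 over all members, and sterol synthesis has opposite signs.

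Among genes of inflammatory signalling, 6 of 21 in the NF-kB list were at least 1.5 times higher at 50 µM glutamine, beside 7.28% of all genes, with a median of 0.36. The count was 6 of 21 in the 4 main cluster groups and 9 of 21 in the Cd209a-led cluster, beside 7.95% and 13.5% of all genes. Tnfaip2, a protein induced by tumour necrosis factor, was at 62.8 CPM in control, 163 at 50 µM glutamine and 88.3 under DON, and Nfkbia, the feedback inhibitor of NF-kB, at 82.3, 151 and 90.2 CPM. Of 15 costimulation and maturation genes 4 were that much higher over all members, 2 of 14 in the 4 main cluster groups and 5 of 14 in the Cd209a-led cluster, beside 7.28%, 7.95% and 13.5% of all genes. Cd80 was at 2.25, 10.2 and 6.16 CPM over all members and Cd40 at 10.9, 21.7 and 10.9 CPM. Ccr7 and Fscn1, the genes most typical of mature dendritic cells, were at 0 by the rule. Of the G2 and M phase genes 15 of 52 were that much higher, with a median of 0.51, and the cell cycle-led share of the members was larger too. Over the 4 main cluster groups 26 of 52 were higher, with a median of 0.59, beside 7.95% of all genes. In the Cd209a-led cluster 4 of 26 were higher and 2 lower, with a median of 0.23, beside 13.5% and 5.09%.

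The highest genes at 50 µM glutamine were also named in the 4 main cluster groups by the same rule. B3gnt5, a glycosyltransferase of lactoseries glycolipids, was at 12.5, 52.2 and 17.3 CPM in control, 50 µM glutamine and DON, and Itga1, the integrin alpha 1 chain, at 37.4, 118 and 62.9 CPM. Cox6a2, a cytochrome c oxidase subunit that pDC express, was at 6.40, 74.1 and 4.28 CPM, and 1 cell gave 29.6% of its UMIs at 50 µM glutamine. Its level was 121 CPM in the cell cycle-led members and 17.4 CPM in the Cd209a-led members at 50 µM glutamine. Ltb was at 62.7, 147 and 45.8 CPM, and within the Ltb-led cluster at 350, 406 and 286 CPM, where the intervals of control and 50 µM glutamine overlapped. Lyz2 was at 240, 681 and 364 CPM and within the Cd209a-led cluster at 379, 1446 and 580 CPM.

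Genes of lipid mediators, the family of the marker Alox5, were mixed. Of 16 measured at 50 µM glutamine, 6 were at least 1.5 times higher and 0 that much lower, beside 7.28% and 2.06% of all genes, while the median of 0.19 was near the 0.15 of all genes. In the 4 main cluster groups 4 of 14 were higher, with a median of 0.07, beside 7.95% of all genes there. In the Cd209a-led cluster 4 of 14 were higher and 1 lower, beside 13.5% and 5.09%. The 6 were Alox12, Mgst2, Ptgs1, Tbxas1, Pla2g4a and Hpgds, and 1 cell gave 96.7% of the UMIs of Alox12 at 50 µM glutamine. Alox5ap, which hands arachidonic acid to 5-lipoxygenase, was at 863 CPM in control, 605 at 50 µM glutamine and 849 under DON, and Hpgds, a prostaglandin D synthase, at 191, 290 and 216 CPM. Hpgd, which inactivates prostaglandins, was at 126, 137 and 124 CPM. Ptgs1, one of the 6, had a ratio of 1.23 over all members and -0.32 within the Cd209a-led cluster.

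With DON the members differed far less from control. Of 5693 genes, 4 had a level 2-fold or more above control, 0.0703%, and 8 a level as far below it, 0.141%. The higher ones were Elane, Prtn3, Mpo and Ctsg, all granule genes of neutrophil and monocyte precursors; the lower ones included Mmp12, Gpnmb and Ccl6, which macrophages express. In the 4 main cluster groups 0 of 5646 genes were higher, 0%, and 4 lower, 0.0708%, and these were Ankrd37, Slc16a3, Adam23 and Ccl5. Mmp12 was at 112, 29.4 and 30.6 CPM in control, 50 µM glutamine and DON over all members, with ratios for DON of -1.72 there and -0.34 in the 4 main cluster groups. Macrophage-like or Clec4n-led clusters held 4.14% of the members in control and 2.84% with DON; the part of these cells in Mmp12 was not tested further.

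The glycolysis list was also the lowest with DON. Of its 22 genes 3 were at least 1.5 times lower and 0 that much higher, against 0.692% and 0.406% of 9110 genes, with a median of -0.35. The 3 were Slc16a3, the lactate exporter, at 28.9 CPM in control and 10.2 with DON, Pfkl, a phosphofructokinase, at 29.9 and 15.2 CPM, and Aldoc. Of 15 hypoxia factor targets 3 were that much lower, Ankrd37, P4ha1 and Egln3, with a median of -0.28. NRF2 genes and ATF4 targets had medians of 0.04 and -0.0040 with DON, and 0 of 20 and 0 of 24 of them were 1.5 times apart. Both treated libraries are set against the same control, so a high or low control value would move both ratios together.

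Single genes with DON were led in the 4 main cluster groups by Lmna, the nuclear lamin A, at 37.6 CPM in control and 73.8 with DON, a ratio of 0.89. Lmna was at 38.1 and 68.8 CPM in the Cd209a-led and 48.4 and 95.3 CPM in the cell cycle-led members. It was at 30.1 and 30.4 CPM in the Ltb-led and 7.40 and 9.73 CPM in the Apod-led members, with overlapping intervals. Its ratio with DON was -0.20 in Cd209a cDC2 and 0.33 in Ltb and S100a4 cDC2. Ckb, the brain-type creatine kinase, was at 155 and 89.4 CPM, a ratio of -0.76, and at 95.02 CPM at 50 µM glutamine. The class II genes H2-DMb2 and H2-Oa had ratios of -0.58 and -0.57 with DON and were also lower at 50 µM glutamine, at 66.8 and 73.4 against 119 and 120 CPM in control. Slamf7, a receptor of the SLAM family, was at 148, 80.4 and 98.4 CPM in control, 50 µM glutamine and DON. Cenpf, a kinetochore protein of dividing cells, was at 123, 198 and 192 CPM. It was at 302, 366 and 388 CPM in the cell cycle-led members and at 3.07, 2.90 and 5.43 CPM in the Cd209a-led members.

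Set against the other kinds of cDC2 of the same library, the members differed in few genes, and the rule shaped that contrast, so it is a description. The first kind had at least 2 UMIs of Cd209a and at most 1 marker, with 285, 232 and 146 cells in control, 50 µM glutamine and DON. The second had Ltb and S100a4, no Cd209a and at most 1 marker, with 180, 307 and 154 cells. Of 3135 genes, 10 (0.319%) were higher by 2-fold or more in members than in Cd209a cDC2 in all 3 libraries, and 10 (0.319%) were lower by as much. Of the 10 higher genes, Ngp, S100a8 and S100a9 are neutrophil genes, and Chil3, Prss34 and Mmp12 had 50.6% to 96.7% of their UMIs in 1 cell of a library. Rasgrp2 had a UMI in 134, 76 and 159 members, and 1 cell gave 52.9% of its UMIs in the library where that share was highest. It was at 37.4, 76.3 and 44.7 CPM in members and 8.17, 14.5 and 8.44 CPM in Cd209a cDC2. The other 3 were spread over cells. Runx2, a Runt factor also found in pDC, was at 73.6, 88.1 and 64.8 CPM in members and 16.3, 37.2 and 21.5 CPM in Cd209a cDC2. Plac8 was at 888, 1602 and 1030 CPM against 251, 798 and 394 CPM, and Gria3, a glutamate receptor subunit, at 34.8, 73.3 and 35.0 CPM against 7.72, 14.01 and 12.3 CPM.

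Lower in members were genes of the Cd209a cDC2 themselves. Clec10a, a C-type lectin, was at 38.7, 53.0 and 32.1 CPM in members against 120, 146 and 82.1 CPM, and Tnip3 at 22.2, 39.5 and 19.8 CPM against 77.2, 111 and 67.5 CPM. H2-Eb1 was at 2254, 1426 and 1746 CPM against 5007, 3368 and 3836 CPM. Against Ltb and S100a4 cDC2, 5 of 3186 genes (0.157%) were higher by 2-fold or more and 1 (0.0314%) lower in all 3 libraries. Ly6c2, a surface protein of monocytes that was not among them, was at 172, 266 and 184 CPM in members against 50.7, 131 and 36.1 CPM. The 1 lower gene was Bcl2a1b, a BCL2 family member, at 9.39, 16.7 and 14.4 CPM against 26.5, 76.2 and 66.1 CPM. The 5 higher genes were Lpl, Mmp12, Prss34, Gpnmb and Rasgrp2, and 1 cell gave 28.1% to 96.7% of the UMIs of each in the library where it was most concentrated.

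Some treatment medians of the gene lists were close in these other cDC2 and others were not. The glycolysis median at 50 µM glutamine was -0.57 in Cd209a cDC2 and -0.66 in Ltb and S100a4 cDC2, beside -0.52 in members, and with DON -0.20 and -0.30 beside -0.35. The class II median at 50 µM glutamine was -0.48 and -0.43 beside -0.42, and that of NRF2 genes 0.49 and 0.36 beside 0.43. The sterol synthesis median at 50 µM glutamine was -0.11 and -0.09 beside -0.35, and with DON 0.46 and 0.34 beside 0.24. The ATF4 median at 50 µM glutamine was 0.52 and 0.41 beside 0.31, and the class II median with DON was -0.13 and -0.42 beside -0.16. Crip1 had ratios of -0.80 and -1.04 at 50 µM glutamine beside -1.59 in members. In members of the Cd209a-led cluster alone Crip1 was at -1.03, near the other kinds, and the sterol synthesis median was -0.15. The ATF4 median there was 0.22, further from the other kinds. The part of the mix of clusters in these differences was not tested. With 1 library per group no difference between the kinds could be tested.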

How the data were processed

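The authors deposited raw UMI counts per gene and barcode for 32285 genes, with no normalisation. Cell Ranger is at 6.0.0 per the file headers and at 3.1.0, with mm10, per the submitters' processing notes, so the version is not settled, and the annotation is not given in the sources used here. Of the gene identifiers 99.6% are in GENCODE vM21 (GRCm38), which gave the positions. No column of another sample was present.

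UMIs were summed over members per library and scaled to CPM. Ratios used a pseudocount of 5 CPM; genes were counted at 2-fold with at least 20 CPM, and list genes at 1.5-fold with at least 5 CPM. Intervals are 95% exact Poisson or Clopper-Pearson. Named genes are the 10 highest and 10 lowest ratios per treatment from 50 CPM upwards (genes of ribosomal proteins, mitochondria, immunoglobulins, haemoglobins and unnamed models left out), up to 3 members per list, and the rule's genes. Against other cDC2 they are the 12 highest and 8 lowest. The members, the 27 gene lists and 13 marker lists were chosen with earlier results of these data known. Of the 702 list genes, 4 symbols were not in the matrices. Clusters (Leiden method, leidenalg 0.10.2) were named from the marker lists. Doublets were scored against simulated ones. Calculations used Python 3.11.15, numpy 2.4.6 and scipy 1.17.1. The code for the ratios and intervals was checked on simulated independent Poisson counts. Those counts lack the clumping of UMIs in single cells, so the check does not show that the intervals cover it. In all, 11 planned and 4 added alternatives were tried.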

Additional observations from a re-analysis of the deposited data

How the results depend on the processing

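No paired analysis was possible because each group had 1 library. The 4 added alternatives were chosen after seeing the data: leaving out cells with 3 or more neutrophil UMIs, leaving out cDC1 gene-led clusters, and keeping only the 4 main cluster groups or only the Cd209a-led cluster. Shares of members for control, 50 µM glutamine and DON were 2.02%, 1.08% and 2.81% with 3 or more markers and 2.61%, 1.03% and 2.45% on thinned cells. They were 12.2%, 7.06% and 9.18% for the whole Cd209a-led cluster in place of the rule, 2.32%, 1.13% and 2.45% for members in that cluster, and 5.04%, 3.82% and 5.82% in the 4 main cluster groups. Without neutrophil UMIs the shares at 50 µM glutamine and with DON were 3.87% and 6.23%, and without cDC1 gene-led clusters those of control and DON were 5.45% and 6.23%. The 69 genes higher at 50 µM glutamine became 226 with 3 or more markers, 121 on thinned cells, 22 in the whole cluster, 25 without neutrophil UMIs, 26 in the 4 main cluster groups, 107 with a pseudocount of 1 CPM, 34 as the mean of the cells' CPM and 133 with no minimum. The 36 lower became 72 with 3 or more markers, 62 on thinned cells and 23 in the whole cluster. The 4 genes higher with DON became 15 with 3 or more markers, 8 without marked doublets, 0 in the whole cluster, 1 without cycling cells, 1 without neutrophil UMIs, 0 in the 4 main cluster groups, 1 in members of the Cd209a-led cluster, 2 as the mean of the cells' CPM and 10 with no minimum. The 8 lower became 15, 2, 4 and 13 with 3 or more markers, in the whole cluster, in the 4 main cluster groups and with no minimum. At 50 µM glutamine these log2 ratios took the opposite sign. On thinned cells they were -1.87 for Chil3, -0.33 for Clec1b, -1.19 for Cxcl10, -0.33 for Egr3 and -1.62 for S100a8. Without cycling cells they were -1.68 for Chil3 and -2.02 for S100a8, and without neutrophil UMIs 1.63 for Prss34 and -0.067 for Clec1b. In the whole cluster they were -0.067 for Itga2b, -1.05 for Ctla2a and -0.50 for Ptgs1, and in the 4 main cluster groups 0.75 for Prss34 and -0.14 for Cxcl10. In members of the Cd209a-led cluster they were -0.17 for Tesc, Cxcl10 and Cd81, 0.20 for Prss34, -0.32 for Ptgs1, -0.69 for Mgl2 and 0.036 for Ffar4. With DON, Elane was -0.0011 without neutrophil UMIs, Ccl6 0.033 in the 4 main cluster groups and Atp6v0d2 0.11 in the whole cluster. Prtn3 with DON was -0.53 on thinned cells, -0.049 in the whole cluster, -0.32 without cycling cells, -0.37 without neutrophil UMIs, -0.69 in the 4 main cluster groups and -0.079 in members of the Cd209a-led cluster. The cause was not tested.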
